A study of Mus musculus with 12 samples.

Results

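The glycerolipid synthesis enzymes described here are 10 genes that turn glycerol 3-phosphate and fatty acyl-CoA into triacylglycerol, or make the glycerol 3-phosphate itself: Gpd1, Pck1, Gpam, Gpat3, Gpat4, Agpat2, Agpat3, Lpin1, Dgat1 and Dgat2. They were chosen by name as the rows of the count table whose Ensembl ID maps to these symbols, and all 10 were found among 52550 genes. The choice was made with earlier results of these data known. Their RNA was followed in 2 fat depots of mice under a high-fat diet, inguinal white fat (WAT) and brown fat (BAT). In each depot 3 libraries came from Mcu fl/fl AKO mice, in which the floxed Mcu gene was removed in adipose tissue, and 3 from Mcu fl/fl mice, which carry the same floxed alleles without the knockout and serve as controls. The 4 groups are called WAT AKO, WAT control, BAT AKO and BAT control. Mcu encodes the pore subunit of the mitochondrial calcium uniporter. The sources used here do not give the Cre driver, the floxed exon, or the sex and age of the mice. The series text names C57BL/6J mice for an inhibitor treatment only. Nothing in the labels says that replicates of a group came from different animals, and the p-values then measure only how these libraries spread, which may be technical.

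Fat cells store fatty acids by esterifying them stepwise to a glycerol backbone, mostly at the endoplasmic reticulum. Glycerol 3-phosphate acyltransferases add the first acyl chain, acylglycerolphosphate acyltransferases add the next to give phosphatidic acid, lipins remove the phosphate to give diacylglycerol, and diacylglycerol acyltransferases add the last chain. White fat uses the route for long-term storage, and brown fat refills with it the droplets that it burns for heat. Because white adipocytes have little glycerol kinase, the backbone comes largely from glucose, or from pyruvate through Pck1 in glyceroneogenesis. Gpd1 makes the glycerol 3-phosphate in both routes.

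The sequences upstream of the transcription start are shown for Agpat2, whose AKO effect differed between the depots, and for Pck1, whose level in WAT control libraries spread widely. Each run holds the 250 bases before the RefSeq start on the coding strand, 5′ to 3′, from build GRCm38.p6. The Agpat2 run is chr2:26604418-26604667 on the minus strand, and the Pck1 run is chr2:173152823-173153072 on the plus strand. On mm10, the build of the files, Agpat2 spans chr2:26593057-26604417, Pck1 chr2:173153048-173159273, Dgat2 chr7:99153658-99182719, Gpd1 chr15:99717515-99725005 and Gpat4 chr8:23171265-23208346 by the GENCODE annotation, whose starts need not be those of RefSeq. Capitals mark the motifs found, which were the GC box GGGCGG in both runs and the cAMP response element motif ACGTCA in Pck1.
Agpat2: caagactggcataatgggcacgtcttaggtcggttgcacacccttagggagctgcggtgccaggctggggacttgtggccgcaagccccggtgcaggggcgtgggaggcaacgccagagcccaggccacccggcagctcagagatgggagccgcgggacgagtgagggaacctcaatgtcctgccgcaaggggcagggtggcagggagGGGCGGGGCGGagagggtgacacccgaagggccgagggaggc
Pck1: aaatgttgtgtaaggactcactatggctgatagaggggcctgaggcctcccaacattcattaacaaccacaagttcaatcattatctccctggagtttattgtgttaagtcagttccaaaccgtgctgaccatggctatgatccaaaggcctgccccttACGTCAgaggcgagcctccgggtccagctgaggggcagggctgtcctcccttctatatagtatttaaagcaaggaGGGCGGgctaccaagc
Counted back from the base before the start as -1, the overlapping GC boxes of Agpat2 begin at -42 and -37, the cAMP response element motif of Pck1 begins at -91 and its GC box at -16. On both strands of all 32841 mouse promoter windows of this length, 32.7% held a GC box and 6.47% held ACGTCA. Neither run held the E-box CACGTG (6.02% of windows did), the sterol regulatory element TCACNCCAC (1.05%), the C/EBP motif TTGCNNAA (9.57%), the TATA box TATAAA (12.4%), the CCAAT box (33.9%), the nuclear receptor motif AGGTCA (14.0%) or DR1, a repeat of that motif as bound by PPAR with RXR (3.24%). Of the other members with a window, Gpat3 held the cAMP response element motif and 3 GC boxes, Agpat3 held the C/EBP motif and Lpin1 the nuclear receptor motif. Gpam has 2 windows, with a CCAAT box in the window before chr19:55127238 and a nuclear receptor motif, a cAMP response element motif and a GC box in the other. No window was used for Gpat4, Dgat1, Dgat2 and Gpd1. A match describes these letters and does not show that a factor binds there. ACGTCA and AGGTCA are parts of longer sites. Mismatches were allowed for DR1 only, so variants of the other motifs, the TATA box among them, were not looked for.

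Libraries held 15692588 to 18967159 counts. Levels are given as CPM, counts relative to library size, scaled by TMM, edgeR's normalisation for RNA composition, over all 12 libraries. Mcu was at 10.1, 12.5 and 10.9 CPM in WAT AKO libraries, against 18.0, 18.7 and 18.8 CPM in WAT control libraries. In BAT it was at 9.46, 14.6 and 8.28 CPM in AKO libraries, against 26.6, 28.8 and 24.0 CPM in control libraries. The AKO mean was 60.3% of the control mean in WAT and 40.7% in BAT, with no overlap of the groups. The changes of -0.75 and -1.27 on the log2 scale did not pass edgeR's quasi-likelihood test over all genes (adjusted p = 0.0799 and 0.202). The counts cover the whole gene, so transcripts that lack the deleted part may still be counted. All 9 brown adipocyte markers were counted in every BAT library and summed to 0.623% to 0.776% of counts there, against 0.00654% to 0.00982% in WAT, where Zic1 was at 0 in 3 libraries and Ucp1 in another. Adipocyte markers were all counted in all libraries. Skeletal muscle markers stood apart in 3 libraries, with 2.40% of counts in WAT AKO replicate 2, 1.35% in WAT control replicate 1 and 1.85% in BAT AKO replicate 2, and at most 0.341% elsewhere.

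In FPKM, which corrects for gene length as well as depth and so allows genes to be compared, the members fell into a broad high and a broad low tier. By group mean, Pck1, Dgat2, Gpd1 and Agpat2 held the first 4 places in every group, and Gpat3 held the last. In WAT AKO libraries the mean was 677 FPKM for Pck1, 470 FPKM for Dgat2, 276 FPKM for Gpd1 and 129 FPKM for Agpat2. In WAT control libraries Dgat2 led with 922 FPKM, ahead of Gpd1 with 455 FPKM, Pck1 with 287 FPKM and Agpat2 with 281 FPKM. The lead of Dgat2 there exceeded the spread between libraries, while Gpd1 and Pck1, and Pck1 and Agpat2, overlapped. In WAT control replicate 3, Pck1 had 50.1 FPKM, below Dgat1 with 60.2 FPKM and Lpin1 with 69.3 FPKM. Brown fat had another leader. Gpd1 averaged 1617 FPKM in BAT AKO and 1872 FPKM in BAT control libraries, followed by Pck1 with 1408 and 1314 FPKM, Dgat2 with 909 and 648 FPKM and Agpat2 with 501 and 377 FPKM. Gpd1 and Pck1 overlapped in BAT AKO libraries and not in BAT control libraries.

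The lower tier changed its order with the depot. Lpin1 and Dgat1 followed the leaders in WAT, at 77.0 and 64.2 FPKM in AKO libraries and at 64.9 and 69.9 FPKM in control libraries, and the 2 genes overlapped in both genotypes. Agpat3 ranked 5 in BAT with 97.9 FPKM in AKO and 98.6 FPKM in control libraries, but ranked 8 in WAT with 29.8 FPKM in AKO and 27.9 FPKM in control libraries. Among the glycerol 3-phosphate acyltransferases, Gpat4 had 50.5 FPKM, Gpam 28.6 FPKM and Gpat3 9.72 FPKM in WAT AKO libraries. The order was the same in WAT control libraries, at 28.8, 25.0 and 11.9 FPKM, in BAT AKO libraries, at 66.4, 64.8 and 5.18 FPKM, and in BAT control libraries, at 70.6, 50.7 and 3.17 FPKM. Gpat3 was below both in all 4 groups without overlap, while Gpat4 and Gpam overlapped in BAT AKO libraries and not in WAT AKO libraries.

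**Figure D1:**
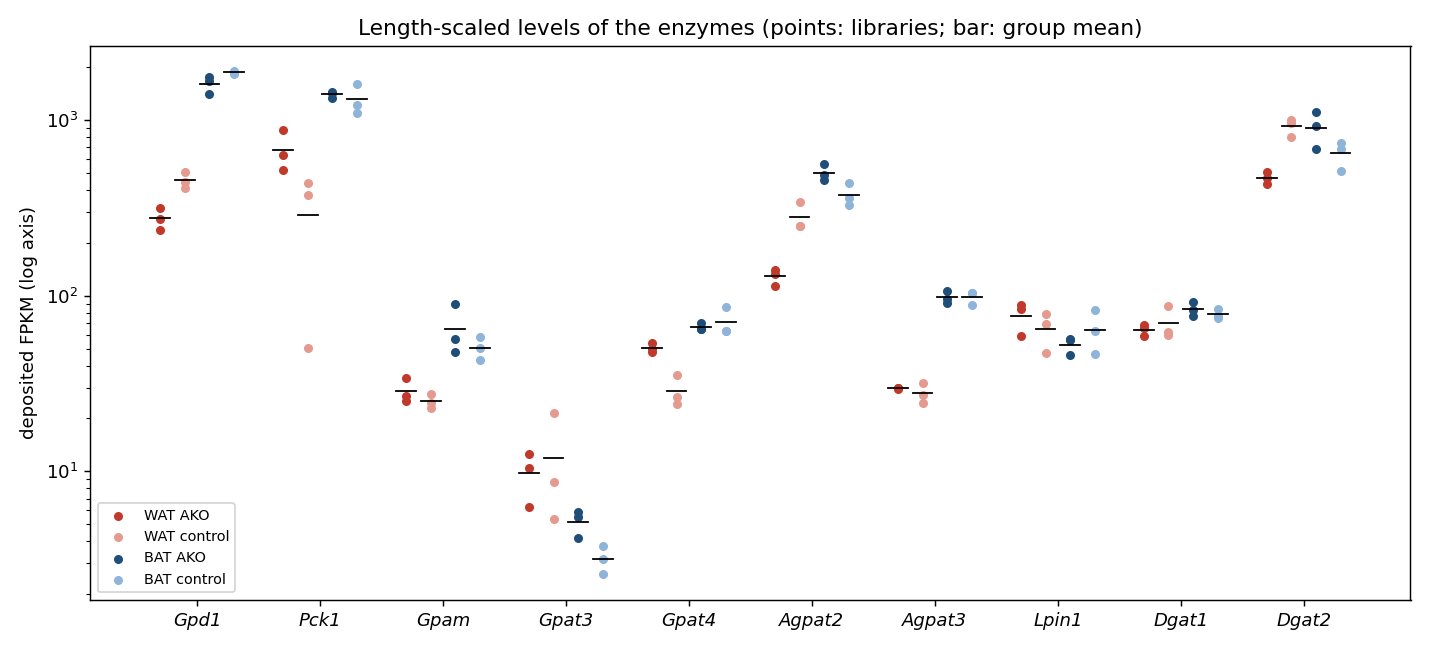
Level of the 10 enzymes per gene length (deposited FPKM, log axis) in each of the 4 groups, with a point per library. By group mean, Gpd1, Pck1, Dgat2 and Agpat2 sit on top in all groups and Gpat3 at the bottom, between means of 3.17 and 11.9 FPKM. Pck1 in WAT control replicate 3, at 50.1 FPKM, lies below Dgat1 and Lpin1 of that library.

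In white fat, 5 of the 10 enzymes separated AKO from control libraries without overlap. Agpat2, Dgat2 and Gpd1 were lower in every AKO library, with AKO means of 42.7%, 47.3% and 56.3% of the control means, and Gpat4 and Pck1 were higher in every AKO library. Groups did not overlap for 30.4% of the 15915 genes tested in WAT (15.9% higher and 14.5% lower), so such a separation was common. None of the 10 passed edgeR's test at an adjusted p of 0.05 over all genes, a threshold that 0.0189% of genes passed (3 genes, all higher in AKO, while 3597 genes had an unadjusted p under 0.05). The members' median log2 difference was -0.15, beside 0.00 over all genes tested. In brown fat 3 members did not overlap, with Gpat3 and Agpat2 higher and Gpd1 lower in AKO libraries, where 19.7% of 14265 genes did not overlap (8.19% higher and 11.5% lower). None of the 10 was called there either, with 0.0771% of genes called (7 genes or 0.0491% higher and 4 genes or 0.028% lower, and 1942 with an unadjusted p under 0.05), and the members' median log2 difference was 0.14 beside 0.01 over all genes.

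The suppliers of the backbone lay on opposite sides of their controls in white fat. Gpd1, which reduces dihydroxyacetone phosphate to glycerol 3-phosphate in the cytosol, had 561, 823 and 649.9 CPM in WAT AKO libraries, against 1249, 1269 and 1094 CPM in WAT control libraries. The log2 difference was -0.85 (SE 0.183, 95% interval -1.29 to -0.41, edgeR adjusted p = 0.101). All 3 AKO libraries were below all 3 controls. BAT levels of Gpd1 were 5756, 4943 and 6142 CPM in AKO libraries, against 6373, 6325 and 6475 CPM in control libraries, again with no overlap but with a log2 difference of only -0.17 (SE 0.0819, edgeR adjusted p = 0.413).

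Pck1, the cytosolic phosphoenolpyruvate carboxykinase, had 1733, 1581 and 2405 CPM in WAT AKO libraries, against 1222, 1266 and 153 CPM in WAT control libraries. Replicate 3 of the controls was far below every other library. The log2 difference was 1.10 (SE 0.701, 95% interval -0.59 to 2.78, edgeR adjusted p = 0.377). Without WAT control replicate 3 it was 0.59 (SE 0.228, edgeR adjusted p = 0.322). In BAT, Pck1 had 5683, 5417 and 5881 CPM in AKO libraries, against 6491, 4805 and 4322 CPM in control libraries, and the groups overlapped, with a log2 difference of 0.14 (SE 0.14).

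Of the 3 enzymes that add the first acyl chain, Gpat4 separated the genotypes in WAT, Gpat3 did so in BAT, and Gpam in neither depot. Gpat4, of the endoplasmic reticulum, had 286, 282 and 268 CPM in WAT AKO libraries, against 226, 150.0 and 144 CPM in WAT control libraries. The log2 difference was 0.67 (SE 0.191, 95% interval 0.21 to 1.12, edgeR adjusted p = 0.133). The AKO libraries lay close together and the controls were spread, with replicate 1 on top. In BAT, Gpat4 had 540.2, 511 and 509 CPM in AKO libraries, against 670.4, 479 and 485 CPM in control libraries, with the AKO values inside the range of the controls and a log2 difference of -0.05 (SE 0.136).

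Gpat3, also of the endoplasmic reticulum, was the rarest member. It had 17.4, 32.1 and 35.2 CPM in WAT AKO libraries, against 28.9, 63.9 and 16.7 CPM in WAT control libraries. Replicate 2 of the controls was the highest of the 12 libraries, and the log2 difference of -0.39 (SE 0.504) became 0.27 without it. In BAT it had 22.3, 24.3 and 17.1 CPM in AKO libraries, against 10.6, 15.01 and 12.8 CPM in control libraries, so that all 3 AKO libraries were higher. The log2 difference in BAT was 0.76 (SE 0.187, 95% interval 0.32 to 1.20, edgeR adjusted p = 0.257). Gpat3 shares 1052 exon bases with the antisense gene 4930458D05Rik, which had 372 counts over all libraries, and whether the counting used strand is not given in the sources used here. Gpam, the mitochondrial isoform, had 81.6, 114 and 77.7 CPM in WAT AKO libraries, against 83.6, 79.1 and 94.9 CPM in WAT control libraries. BAT levels of Gpam were 253, 218 and 403 CPM in AKO libraries, against 227, 254 and 190.3 CPM in control libraries. Both depots overlapped, with replicate 3 of BAT AKO above all others, and the log2 differences were 0.07 in WAT (SE 0.179) and 0.40 in BAT (SE 0.225).

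The step to phosphatidic acid held the member with the lowest AKO level relative to controls in white fat. Agpat2 is the main acylglycerolphosphate acyltransferase of fat, and in humans its loss causes congenital generalised lipodystrophy. It had 194, 251 and 238 CPM in WAT AKO libraries, against 508, 616 and 476 CPM in WAT control libraries. The highest AKO library was below the lowest control. The log2 difference was -1.25 (SE 0.16, 95% interval -1.63 to -0.86, edgeR adjusted p = 0.067). In BAT the order was the other way round, with 1382, 1147 and 1220 CPM in AKO libraries, against 903, 1066 and 805 CPM in control libraries, and a log2 difference of 0.45 (SE 0.119, 95% interval 0.18 to 0.73, edgeR adjusted p = 0.264). Agpat2 shares 64 of its 2130 exon bases with Egfl7, an endothelial gene on the opposite strand that averaged 51.1 CPM in WAT AKO and 75.4 CPM in WAT control libraries, and 90.2 CPM in BAT AKO and 129.5 CPM in BAT control libraries. Agpat3, a broadly expressed isoform, had 185, 205 and 185 CPM in WAT AKO libraries, against 236, 179 and 171 CPM in WAT control libraries. BAT levels of Agpat3 were 866, 841 and 976 CPM in AKO libraries, against 943, 921 and 794 CPM in control libraries. These groups overlapped, and the 95% interval of its log2 difference was -0.41 to 0.32 in WAT, and in BAT it was -0.19 to 0.26.

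Lpin1, a phosphatidate phosphatase that also acts as a transcriptional coactivator, varied within its groups, least in BAT AKO libraries. It had 645, 755 and 454 CPM in WAT AKO libraries, against 721, 384 and 598 CPM in WAT control libraries. In BAT it had 624, 526 and 642 CPM in AKO libraries, against 936, 513 and 695 CPM in control libraries. Its groups overlapped in both depots, with log2 differences of 0.11 in WAT (SE 0.293) and -0.24 in BAT (SE 0.203).

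The last step is shared by a pair of unrelated enzymes, and in white fat only Dgat2 separated the genotypes. Dgat2 had 1157, 1371 and 1073 CPM in WAT AKO libraries, against 2365, 2499 and 2758 CPM in WAT control libraries. The log2 difference was -1.10 (SE 0.172, 95% interval -1.51 to -0.69, edgeR adjusted p = 0.0749). In BAT it had 3988, 2486 and 3367 CPM in AKO libraries, against 2478, 2624 and 1815 CPM in control libraries. There replicate 2 of the AKO libraries lay within the control range while the other 2 were above it, and the log2 difference was 0.53 (SE 0.189, 95% interval 0.08 to 0.97, edgeR adjusted p = 0.331). Dgat1 had 144, 177 and 166 CPM in WAT AKO libraries, against 180.2, 226 and 164 CPM in WAT control libraries. In brown fat Dgat1 had 324, 302 and 274 CPM in AKO libraries, against 275, 293 and 261 CPM in control libraries. Dgat1 overlapped in both depots, with log2 differences of -0.25 in WAT (SE 0.152) and 0.14 in BAT (SE 0.0948).

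**Figure D2:**
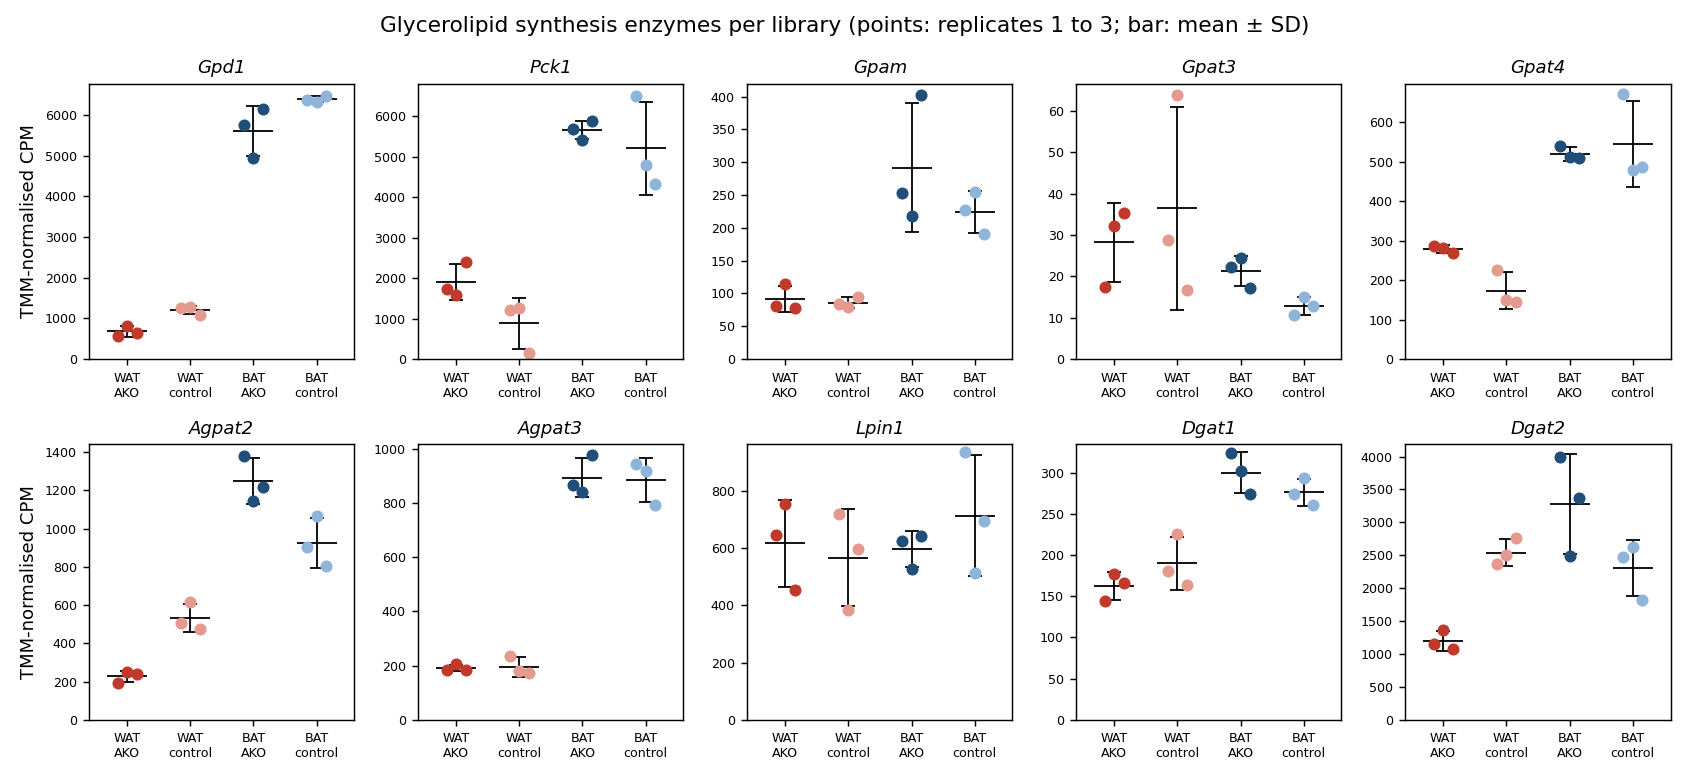
TMM-normalised CPM of each enzyme in the 12 libraries, by depot and genotype, with points for replicates 1 to 3 and bars for mean ± SD. Agpat2 averaged 228 CPM in WAT AKO and 534 CPM in WAT control libraries, and 1249 CPM in BAT AKO and 925 CPM in BAT control libraries.

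The choice of tool changed whether the white fat differences were called. With DESeq2 on the same 6 libraries, Agpat2 (adjusted p = 2.27e-11), Dgat2 (1.31e-10) and Gpd1 (0.000162) were called lower in AKO and Gpat4 (0.0134) higher, amid 979 genes called lower and 700 called higher. An edgeR fit over all 12 libraries, which shares the spread between depots, called the same 4 members with adjusted p = 0.006 for Agpat2, 0.0157 for Dgat2, 0.0153 for Gpd1 and 0.0477 for Gpat4, amid 591 genes called lower and 439 higher. Without WAT control replicate 2, edgeR called Agpat2 and Dgat2 lower (adjusted p = 0.0154 and 0.0248), amid 583 genes called lower and 1066 higher of 16376. That library had the largest shares of B and T lymphocyte markers among the WAT controls, 0.0392% and 0.0216% of its counts. Whether these shares bear on the calls was not tested. In BAT, DESeq2 called Gpat3 (adjusted p = 0.0235) and Agpat2 (0.0347) higher in AKO, amid 133 genes called higher and 147 lower.

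Summed marker levels differed between the genotypes in the same libraries. Adipocyte markers, all 10 counted in all libraries, summed to 3.26% to 3.78% of counts in WAT AKO and 3.8% to 3.97% in WAT control libraries, and to 2.01% to 2.22% in BAT AKO and 1.97% to 2.25% in BAT control libraries. In WAT 7 of these markers were lower in AKO and 3 higher (median log2 difference -0.23, 4 lower and 1 higher with no overlap). In BAT 8 were higher and 2 lower (median 0.10), and none was called in either depot. B lymphocyte markers, at least 7 of 8 counted in each WAT library, summed to 0.0436% to 0.115% in WAT AKO and 0.0003% to 0.0392% in WAT control libraries, where Ms4a1 was at 0 in 1 control. The 8 progenitor markers summed to 0.214% to 0.237% in WAT AKO and 0.245% to 0.421% in WAT control libraries, and the 8 macrophage markers to 0.0128% to 0.0170% in BAT AKO and 0.0186% to 0.0209% in BAT control libraries. The summed shares of T lymphocyte, macrophage and endothelial markers overlapped between the genotypes in WAT, but their genes leaned one way. In WAT AKO libraries 7 of 8 macrophage markers were lower (median log2 difference -0.79, 5 lower with no overlap), all 8 endothelial markers were lower (-0.55, 2 with no overlap) and all 8 T lymphocyte markers were higher (1.60, 2 with no overlap). None of these genes was called, and of all genes tested in WAT 14.5% were lower and 15.9% higher with no overlap. In BAT the summed shares of adipocyte, muscle, endothelial and progenitor markers overlapped. Mammary epithelial markers stayed at or below 0.000743% in all libraries, with Wap and Krt5 at 0 in each, and hepatocyte markers at or below 0.0049%. Their part in the enzyme differences was not tested. Without the library of each group that held most muscle counts, the log2 differences in WAT were -1.38 for Agpat2, -1.28 for Dgat2, -1.003 for Gpd1 and 0.87 for Gpat4. In bulk tissue fewer adipocytes and less RNA per adipocyte cannot be told apart.

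**Figure D3:**
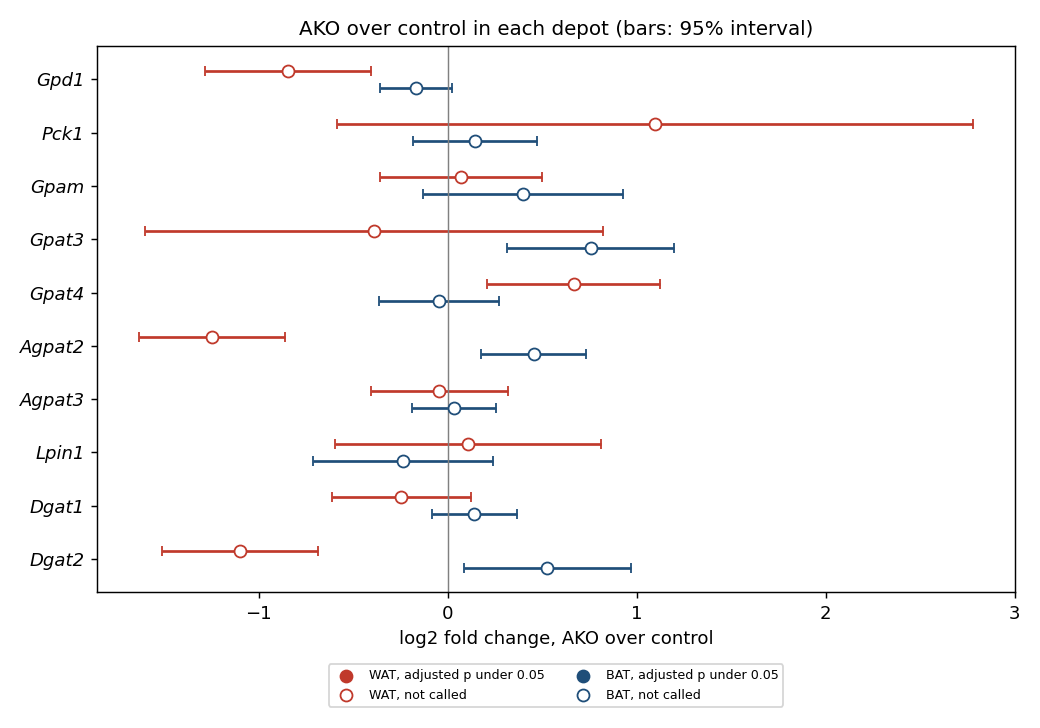
Log2 fold change of AKO over control for each enzyme in WAT and in BAT, with bars for the 95% interval from edgeR. In WAT the intervals of Agpat2, Dgat2 and Gpd1 lie below 0 and that of Gpat4 above it, while in BAT those of Gpat3, Agpat2 and Dgat2 lie above 0.

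The effect of the knockout on Agpat2 and Dgat2 differed between the depots. A test of the difference itself over all 12 libraries, the AKO effect in BAT minus that in WAT, gave 1.66 for Agpat2 on the log2 scale (SE 0.212, 95% interval 1.20 to 2.13, edgeR adjusted p = 0.0228). For Dgat2 it gave 1.59 (SE 0.269, 95% interval 1.00 to 2.18, edgeR adjusted p = 0.0482). These 2 of the 10 members were called with a higher effect in BAT and none with a lower one, where 0.275% of 16391 genes were called, 0.153% higher and 0.122% lower. Because the members were chosen with earlier results of these data known, that share is no independent yardstick for their count. The difference was 0.64 for Gpd1 (adjusted p = 0.149), -0.75 for Gpat4 (0.163), 1.10 for Gpat3 (0.347) and -0.99 for Pck1 (0.525) by the same edgeR test. It lay between -0.38 and 0.35 for Lpin1, Agpat3, Gpam and Dgat1. The value for Agpat2 stayed between 1.52 and 1.85 and that for Dgat2 between 1.43 and 2.00 in the 21 other fits made, which left out libraries or changed the tool, filter or model.

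Both calls were close to the threshold. Leaving out 1 library at a time, Agpat2 was called in 6 of 12 fits and missed it without BAT AKO replicate 1 or 3, BAT control replicate 1 or 3, or WAT AKO replicate 1 or 3 (edgeR adjusted p = 0.0523 to 0.0778). Over all genes, each fit that missed it called only 1 or 2 genes higher and 1 to 4 lower. Dgat2 was called in 4 of 12, those without replicate 2 of any group, and had an edgeR adjusted p of 0.0606 to 0.139 in the rest. The fits without a replicate 2 called 7 to 242 genes higher and 4 to 681 lower, and the rest 1 to 27 higher and 1 to 8 lower. Without the library of each group that held most muscle counts, the differences were 1.85 and 2.00 (edgeR adjusted p = 0.16 for each), in a fit that called 0 of 16588 genes. With the replicate number as a block within genotype, since same-numbered libraries of the 2 depots mostly deviated together, Agpat2 and Dgat2 were called (edgeR adjusted p = 0.0125 and 0.0466), as was Gpat4 with a lower effect in BAT (-0.76, adjusted p = 0.0442). That blocked fit called 106 genes higher and 155 lower, against 25 and 20 without the block.

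Ratios of enzymes within a library do not depend on its scaling. Dgat2 over Dgat1 in FPKM was 7.96, 7.68 and 6.40 in WAT AKO libraries, against 13.01, 10.97 and 16.7 in WAT control libraries. In BAT it was 12.2, 8.16 and 12.2 in AKO libraries, against 8.94, 8.86 and 6.90 in control libraries. The genotypes thus did not overlap in WAT and did so in BAT. Agpat2 over Agpat3 was 3.82, 4.47 and 4.72 in WAT AKO libraries, against 7.87, 12.6 and 10.2 in WAT control libraries. In BAT it was 5.84, 4.99 and 4.57 in AKO libraries, against 3.50, 4.24 and 3.71 in control libraries. The AKO libraries were all lower in WAT and all higher in BAT. Pck1 over Gpd1 was 2.67, 1.66 and 3.19 in WAT AKO libraries, against 0.845, 0.862 and 0.121 in WAT control libraries, where the low value belongs to the replicate that stood apart for Pck1. In BAT it ranged from 0.827 to 0.946 in AKO and from 0.576 to 0.880 in control libraries. Pck1 was thus above Gpd1 in each WAT AKO library and below it in the other 9 libraries. Gpat4 over Gpam averaged 1.80 ± 0.335 in WAT AKO and 1.17 ± 0.347 in WAT control libraries, and 1.10 ± 0.329 in BAT AKO and 1.41 ± 0.309 in BAT control libraries (SD, n = 3 each), with overlap in both depots.

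**Figure D4:**
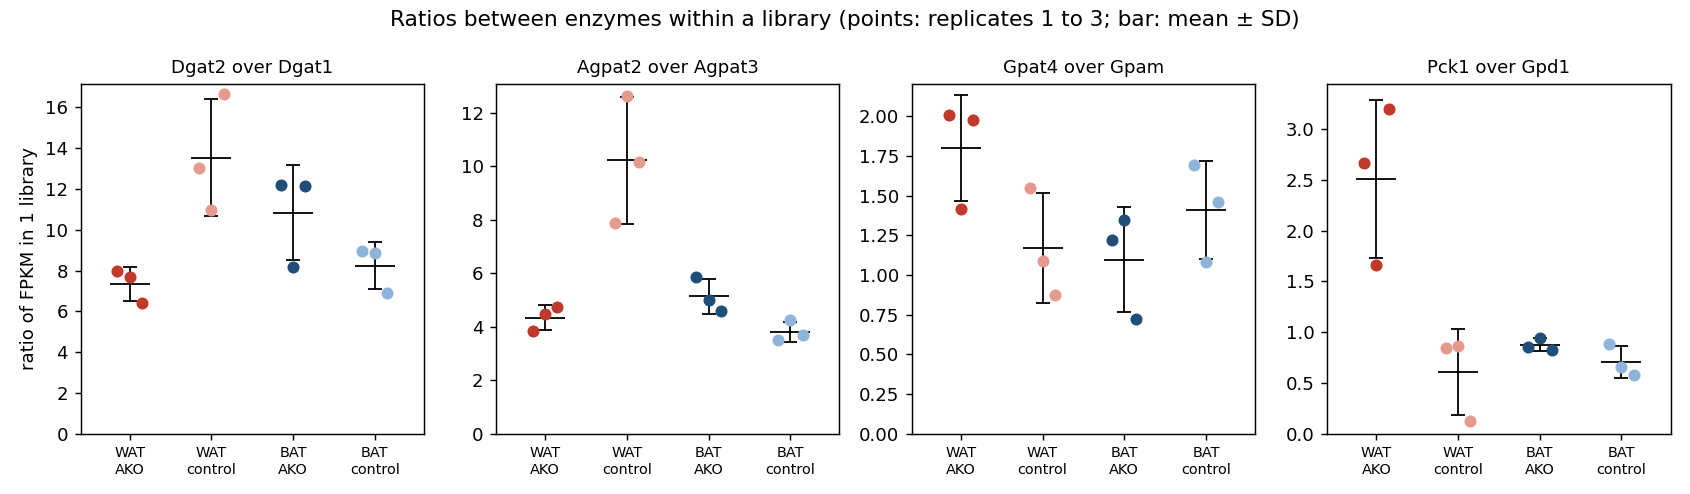
Ratio of FPKM between 2 enzymes of neighbouring or alternative steps within each library, with points for replicates 1 to 3 and bars for mean ± SD in the 4 groups. Agpat2 over Agpat3 averaged 4.34 in WAT AKO and 10.2 in WAT control libraries, and 5.13 in BAT AKO and 3.81 in BAT control libraries.

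Most of these enzymes took a larger share of the RNA in brown than in white fat. In AKO mice 8 of the 10 were called higher in BAT and none lower, where 59.3% of 15671 genes were called, 28.8% higher and 30.5% lower. In control mice 7 of the 10 were called higher and 1, Gpat3, lower, where 50.1% of 15031 genes were called, 24.4% higher and 25.7% lower. The members' median log2 difference was 1.58 in AKO mice and 1.08 in control mice, beside -0.02 and -0.04 over all genes. Only Lpin1 was called in neither genotype.

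Gpd1 had the largest difference in AKO mice, with 5614 ± 612 CPM in BAT and 678 ± 133 CPM in WAT (SD, n = 3 each here and below), a log2 difference of 3.12 (SE 0.188, edgeR adjusted p = 1.34e-05). In control mice it averaged 6391 ± 76.6 CPM in BAT and 1204 ± 96.0 CPM in WAT, a log2 difference of 2.40 (SE 0.132, edgeR adjusted p = 4.88e-05). Agpat3 was called higher in both genotypes, by 2.29 in AKO mice (SE 0.121, edgeR adjusted p = 8.24e-06) and by 2.17 in control mice (SE 0.168, edgeR adjusted p = 0.000121). The depot difference of Agpat2 was larger in AKO mice, as the test above shows. It averaged 1249 ± 120.3 CPM in BAT and 228 ± 30.0 CPM in WAT of AKO mice, a log2 difference of 2.53 (SE 0.149, edgeR adjusted p = 1.23e-05), and 925 ± 132 CPM in BAT and 534 ± 73.3 CPM in WAT of control mice, a log2 difference of 0.78 (SE 0.164, edgeR adjusted p = 0.00731). Dgat2 was called in AKO mice, with 3280 ± 754 CPM in BAT and 1200 ± 154 CPM in WAT (log2 difference 1.52, SE 0.200, edgeR adjusted p = 0.000478). In control mice it averaged 2306 ± 431 CPM in BAT and 2541 ± 199.5 CPM in WAT, and its interval ran from -0.56 to 0.26.

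Gpam was higher in BAT by 1.74 in AKO mice (SE 0.267, edgeR adjusted p = 0.00102) and by 1.37 in control mice (SE 0.143, edgeR adjusted p = 0.00039). Gpat4 was higher by 0.97 (SE 0.1, edgeR adjusted p = 0.000143) and 1.64 (SE 0.229, edgeR adjusted p = 0.00133) in the same genotypes, and Dgat1 by 0.96 (SE 0.126, edgeR adjusted p = 0.000475) and 0.53 (SE 0.148, edgeR adjusted p = 0.0224). Each of these 3 was called higher in brown fat of both genotypes. Pck1 was higher by 1.64 in AKO mice (SE 0.164, edgeR adjusted p = 0.000121) and by 2.55 in control mice (SE 0.718, edgeR adjusted p = 0.0233), or 2.05 without WAT control replicate 3. Gpat3 ran against the rest, at 12.8 ± 2.21 CPM in BAT and 36.5 ± 24.5 CPM in WAT of control mice (log2 difference -1.52, SE 0.472, edgeR adjusted p = 0.0329), or -0.83 without WAT control replicate 2 (edgeR adjusted p = 0.05). In AKO mice its log2 difference was -0.34 (SE 0.268, edgeR adjusted p = 0.309). Lpin1 averaged 597 ± 62.3 CPM in BAT and 618 ± 152 CPM in WAT of AKO mice, and 714 ± 212 CPM in BAT and 568 ± 171 CPM in WAT of control mice.

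The scaling between depots bears on these differences. With the deposited FPKM, the median log2 difference over all genes was -0.37 in AKO mice and -0.25 in control mice, and the calls split into 2092 higher and 8708 lower in AKO mice, against 4510 and 4781 with TMM, and into 2184 higher and 6008 lower in control mice, against 3666 and 3858. On that scale the 8 members called higher in AKO mice were still called, while Lpin1 (-0.52, limma adjusted p = 0.0258) and Gpat3 (-0.76, limma adjusted p = 0.0234) were called lower. In control mice Agpat2 and Dgat1 were no longer called (limma adjusted p = 0.0775 and 0.345). Dgat2 in control mice averaged 648 FPKM in BAT and 922 FPKM in WAT with no overlap, though 0 of 15 other fits called it. Without the library of each group that held most muscle counts, Gpam, Gpat4, Agpat3 and Gpd1 were called in control mice and Agpat2, Dgat1, Pck1 and Gpat3 were not (edgeR adjusted p = 0.0564 to 0.13). Calls of Gpat3, Dgat1 and Pck1 in control mice were also lost when certain single libraries were left out, Gpat3 without any of the BAT control libraries (edgeR adjusted p = 0.0705 to 0.104), Dgat1 without WAT control replicate 3 or BAT control replicate 1 or 2 (0.0539 to 0.0671) and Pck1 without BAT control replicate 1 or 2 (0.0515 and 0.0637).

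**Figure D5:**
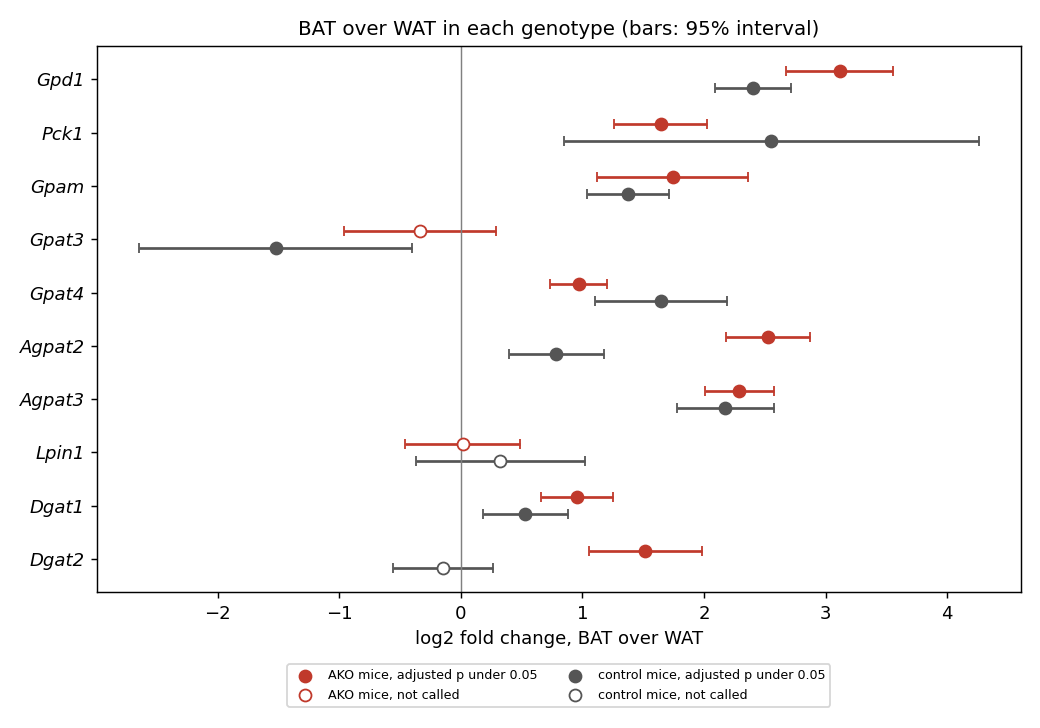
Log2 fold change of BAT over WAT for each enzyme in AKO and in control mice, with bars for the 95% interval from edgeR and filled points for an adjusted p under 0.05. The values of Agpat2 are 2.53 in AKO and 0.78 in control mice, and those of Dgat2 are 1.52 and -0.15.

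For each member but Pck1, the genes whose pattern over the 12 libraries was most like it were named by the root mean squared difference of log2 CPM after centring, among 9170 genes of at least 10 CPM on average. Closest to Agpat2 were Fam69b (0.209) and Ppp1r3d (0.219), beside a spread of 0.945 for Agpat2 itself. Closest to Dgat2 were Adora1, an adenosine receptor that restrains lipolysis in fat cells (0.244), and Vldlr, a lipoprotein receptor (0.245). Agpat3 had as nearest matches Clpb (0.0606) and Uqcc1 (0.0716), genes of mitochondrial proteins. For Gpd1 they were Dlat (0.230), a subunit of pyruvate dehydrogenase, and Kcnk3 (0.232), and for Gpam the mitochondrial fusion gene Opa1 (0.151) and Abhd6 (0.167). Gpat4 was nearest to Kyat3 (0.150) and Gcdh (0.151), Dgat1 to Tbc1d13 (0.109) and Nap1l4 (0.114), and Lpin1 to Peli2 (0.172) and Dcun1d3 (0.174). Gpat3 was nearest to Trps1 (0.359) and Slc25a25 (0.362), beside a spread of 0.663 for Gpat3, and Lpin1 had a spread of 0.331. Among the members themselves, the one most like Agpat2 was Dgat2 (0.525, rank 402 of 9170 genes) and the one most like Gpd1 was Agpat3 (0.427, rank 153). For Gpat3 it was Dgat1, at rank 6224, so many other genes were closer than the members. These are descriptions over libraries that share depot and genotype.

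Other genes of the route and its surroundings were taken from 6 lists: other acyltransferases and phosphatases, glycerol 3-phosphate supply, acyl-CoA synthetases, the phospholipid branch, diacylglycerol kinases and regulators. None of their genes passed edgeR's test of AKO against control in either depot, or of the difference between the depots. Among other acyltransferases and phosphatases, 10 of 12 tested were lower in WAT AKO, with a median log2 difference of -0.21. Those of smallest p were Plpp3, a lipid phosphate phosphatase with 134 ± 2.36 CPM in WAT AKO and 224 ± 27.1 CPM in WAT control libraries (-0.76, edgeR adjusted p = 0.0749), Bscl2, the lipid droplet protein seipin (-0.58, edgeR adjusted p = 0.109), and Plpp2 (-0.54, edgeR adjusted p = 0.133). In glycerol 3-phosphate supply, 9 of 14 were lower in WAT AKO, with -0.59 for pyruvate carboxylase Pcx and -0.82 for glycerol kinase Gk, and 2.84 for Aqp3 at 1.93 ± 0.994 CPM in WAT AKO and 0.258 ± 0.278 CPM in WAT control libraries. The acyl-CoA synthetases were lower for 6 of 7, with -0.49 for Slc27a4, -0.71 for Acss2 and 0.46 for Slc27a1. The phospholipid branch was lower for 16 of 26, with -0.70 for Lpcat3, -0.80 for Pemt and 0.88 for Lpcat1. Of the regulators 7 of 15 were lower, with -0.26 for Pparg, 0.33 for Srebf2 and 0.22 for Usf2. Of 9 diacylglycerol kinases 5 were lower, with -1.13 for Dgki and 0.86 for Dgka. The list medians for supply, synthetases, phospholipid branch, kinases and regulators were -0.14, -0.36, -0.16, -0.05 and 0.01, and over all genes tested in WAT 7884 were lower and 8031 higher.

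Over all genes tested in brown fat, 7359 were higher and 6906 lower in AKO libraries, and 8.19% were higher with no overlap. Of the acyl-CoA synthetases 5 of 8 were higher in AKO libraries, with a log2 difference of 1.01 for Acsl3 at 33.7 ± 2.17 CPM in BAT AKO and 17.0 ± 5.31 CPM in BAT control libraries (edgeR adjusted p = 0.225), 0.62 for Slc27a2 and 0.36 for Acsl1, none of which overlapped. Of the regulators 11 of 15 were higher, with 0.78 for the glucocorticoid receptor Nr3c1 (edgeR adjusted p = 0.215) 0.63 for Ppargc1a (edgeR adjusted p = 0.27) and 0.24 for Cebpa. The phospholipid branch had 0.34 for both Etnk1 and Pcyt1a, and -0.28 for Cdipt. Of 12 other acyltransferases and phosphatases 9 were lower in BAT AKO, with -1.16 for Lpin3 (edgeR adjusted p = 0.324), -0.60 for Agpat4 (edgeR adjusted p = 0.325) and -0.44 for Plpp2. In glycerol 3-phosphate supply 8 of 12 were higher, with -0.29 for Pck2, the mitochondrial counterpart of Pck1, 0.23 for Gpd1l and 0.13 for Aqp7. Of 7 diacylglycerol kinases 5 were lower, with 0.37 for Dgkd, -0.17 for Dgka and -0.20 for Dgkq. The list medians lay between -0.07 for the kinases and 0.27 for the synthetases, beside 0.01 over all genes.

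Between depots many of these genes were called. Over all genes tested, 28.8% were called higher and 30.5% lower in AKO mice, and 24.4% higher and 25.7% lower in control mice, and list counts near these shares say nothing particular about a list. In glycerol 3-phosphate supply, 7 of 14 tested were called higher in BAT of AKO mice and 8 of 13 in BAT of control mice, with 2 and 1 called lower. Gpd2, the mitochondrial partner of Gpd1, had 942 ± 153 CPM in BAT and 36.4 ± 7.95 CPM in WAT of AKO mice, a log2 difference of 4.76, and 5.03 in control mice. Gk differed by 4.49 and 3.61 in these genotypes, Mdh2 by 2.55 and 2.48 and the glycerol channel Aqp7 by 1.26 and 0.93. Of 15 regulators, 10 were called higher in AKO mice and 8 in control mice, led by Ppara (5.88 and 5.19), Mlxipl, which encodes the carbohydrate-responsive factor ChREBP (2.91 and 2.80), and Esrra (2.55 in both). Other acyltransferases and phosphatases went mostly the other way, with 2 called higher and 5 lower of 12 in AKO mice, and 2 higher and 6 lower of 12 in control mice. Agpat1 was called higher (1.28 and 1.00), while the monoacylglycerol acyltransferase Mogat1 (-1.29) was called lower in AKO mice, and Mogat2 (-2.91) and Plpp3 (-1.21) were called lower in control mice. Of 8 acyl-CoA synthetases 6 were called higher and 1 lower in AKO mice, and 2 higher and 2 lower in control mice. Slc27a2, a very-long-chain acyl-CoA synthetase, had 258 ± 1.90 CPM in BAT and 0.428 ± 0.453 CPM in WAT of AKO mice, while Slc27a1 was called lower in both genotypes (-1.01 and -1.03). Of 26 genes of the phospholipid branch 11 were called higher and 9 lower in AKO mice, and 9 higher and 7 lower in control mice, with 2.26 and 2.61 for the cardiolipin synthase Crls1, 2.26 and 2.08 for Chkb, and 1.76 and 1.44 for Ptdss2. Of the diacylglycerol kinases 3 of 7 were called higher and 2 lower in AKO mice, and 3 of 8 higher and 1 lower in control mice, with 0.83 and 0.61 for Dgkd and -1.93 for Dgka in AKO mice.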

How the data were processed

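RNA of 12 libraries was sequenced by the submitters as polyA RNA isolated with TRIzol and prepared with the VAHTS Universal V6 kit, per the labels' protocols. Whole-number counts per gene and FPKM were deposited by the authors. The submitters' processing notes name build mm10 and the tools Bowtie2 2.2.3, HISAT2 2.1.0 and HTSeq 0.6.0, while no source used here gives their roles, the annotation or whether counting used strand. Unequal depth, 15692588 to 18967159 counts, was scaled by TMM. Titles of the samples gave group and replicate.

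Each comparison was fitted on its own libraries with edgeR 4.0.16 (quasi-likelihood F-test, filterByExpr with a count minimum of 10 and a total of 15, Benjamini-Hochberg over all genes tested, threshold 0.05), and the difference between depots on all 12. The step was tested on simulated data with the same spread parameter for every gene. Its behaviour under the uneven spread of these libraries was not tested. DESeq2 1.42.0, limma 3.58.1 (voom, and trend on log2(FPKM + 1)), other scaling, filters, blocks and left-out libraries served as alternatives. The members and lists were chosen with earlier results of these data known. Named were all members, Mcu, the genes of each pathway list with the smallest p (up to 3 per depot for genotype and up to 4 between depots, of which the text prints the leading ones) and up to 2 nearest genes per member (those of Pck1 are not reported here). In BAT against WAT, libraries with the same replicate number mostly deviated together (correlations 0.196 to 0.71 in AKO and 0.233 to 0.55 in control mice). BAT AKO replicate 3 (0.196) correlated better with a WAT AKO library of another number. The numbers were taken to pair the depots, from the data alone, though the main fits held no block. Blocked fits of BAT against WAT called the same number of members. Symbols came from GENCODE annotation, which named 52403 of 52550 genes. Promoters came from RefSeq, and the GC box and ACGTCA were added to the motifs after the windows had been read.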

Additional observations from a re-analysis of the deposited data

Results flagged for a closer look

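Agpat2 and Dgat2 are listed because the effect of the knockout differed between the depots by a test of that difference. The AKO effect in BAT minus that in WAT was 1.66 for Agpat2 and 1.59 for Dgat2 on the log2 scale (edgeR adjusted p = 0.0228 and 0.0482). All 3 WAT AKO libraries lay below all 3 WAT controls for both genes, as they did for 14.5% of genes tested in WAT. In BAT all 3 AKO libraries lay above all 3 controls for Agpat2, as they did for 8.19% of genes tested there, and 2 of 3 did so for Dgat2. Of 21 other fits, 14 called Agpat2 and 10 called Dgat2. Neither was called without the library of each group that held most muscle counts (edgeR adjusted p = 0.16 for each). That fit called 0 of 16588 genes, so it could not single out these 2, and its differences were 1.85 for Agpat2 and 2.00 for Dgat2.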

How the results depend on the processing

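Of 810 member fold changes under other settings, 731 kept direction and side of the threshold, 33 lost the call, 18 gained it and 28 changed sign; where no cause is given, the cause was not tested. AKO against control in WAT (3 genes higher, 0 lower, no member called) gave 700 higher and 979 lower with DESeq2 (1 member higher, 3 lower), 439 and 591 with all 12 libraries in 1 fit (1 member higher, 3 lower), 98 and 179 with no filter (2 members lower), 1 higher with limma voom, and 0 higher with the replicate block or without the most muscle-rich libraries. In BAT (7 higher, 4 lower) the counts were 133 and 147 with DESeq2 (2 members higher), 17 and 16 with no filter, 1 and 0 with the replicate block, and 1 and 1 without the muscle-rich libraries. Same-numbered AKO and control libraries did not deviate together (correlations -0.519, -0.075 and 0.202 in WAT, -0.654, -0.315 and 0.171 in BAT), so the block there joins libraries that share only a number. BAT against WAT in AKO mice (4510 higher, 4781 lower) gave 2092 higher and 8708 lower with FPKM, with 2 members lower. In control mice (3666 higher, 3858 lower) it gave 2184 and 6008 with FPKM, 2415 and 2348 without the muscle-rich libraries (4 members higher, 0 lower, with fewer samples) and 0 members lower with voom. The difference of AKO effects (25 higher, 20 lower) gave 617 and 356 with DESeq2, 16 and 8 with voom, 71 and 61 with no filter, 46 and 157 with FPKM, 11 lower with the replicate block, 0 and 0 without the muscle-rich libraries, and 106 and 155 with the replicate block within genotype, which was chosen after seeing the data. There 1 member was called higher with voom and with the replicate block, 0 without the muscle-rich libraries, and 1 lower with the block within genotype. Signs turned for these values: in WAT, Gpam -0.17 and Agpat3 0.043 without the muscle-rich libraries and Agpat3 0.10 with FPKM; in BAT, Gpat4 0.12 and Lpin1 0.0671 without the muscle-rich libraries and Agpat3 -0.0096 with FPKM; between depots, Lpin1 in AKO mice -0.0297 with no filter, -0.52 with FPKM and -0.0503 with all 12 libraries, and in control mice -0.0274 with FPKM; and in the difference of effects, Agpat3 -0.11 with FPKM.

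Leaving out 1 library at a time gave 1 to 1066 genes higher and 0 to 583 lower in WAT, with 0 to 2 members lower; the upper ends came without WAT control replicate 2. In BAT it gave 0 to 34 higher and 0 to 61 lower, and for the difference of effects 1 to 242 higher and 1 to 681 lower, with 0 to 2 members higher. Between depots 0 to 1 members were lower in AKO and in control mice. Ranges that crossed 0 were, in WAT, -0.14 to 0.17 for Gpam, -0.74 to 0.27 for Gpat3, -0.13 to 0.11 for Agpat3 and -0.13 to 0.31 for Lpin1; in BAT, -0.13 to 0.12 for Gpat4 and -0.0347 to 0.0747 for Agpat3; between depots, -0.16 to 0.21 for Lpin1 in AKO mice and -0.24 to 0.0107 for Dgat2 in control mice; and in the difference of effects, -0.0096 to 0.49 for Gpam and -0.0798 to 0.13 for Agpat3. With 3 libraries a group the spread is poorly known, and the rarest member, Gpat3, is the most exposed to counting error.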
